A study of Homo sapiens with 6 samples.

Results

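Genes of the cornified envelope, the S100 family and the kallikrein family were examined in FaDu cells, an established squamous carcinoma line of the hypopharynx, after treatment with BB608 or with its vehicle DMSO. The set holds 36 genes, chosen by name from 20622 single gene names in the authors' deposited table. Every coding sequence under each of those names was taken and its FPKM (fragments scaled by length and by sequencing depth) was summed, giving a gene sum per group. The 36 genes had 77 coding sequences. The series holds 6 libraries in 2 groups, 3 biological replicates with DMSO and 3 with BB608, all from the same unmodified line, and BB608 is known in the sources used here only by that code name. Neither label nor protocol states its dose or the treatment time. Since the authors pooled each group into 1 FPKM value, no value per library can be shown, no spread between libraries can be computed and the depth is unknown. Their table names the groups DMSO_subset and BB608_subset, and these names do not tell whether all libraries or all reads went in.

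Keratinocytes that leave the basal layer build a cornified envelope beneath the plasma membrane. Transglutaminases crosslink precursors such as involucrin and the small proline-rich (SPRR) proteins onto a scaffold that holds envoplakin and periplakin, while keratin pairs change from basal to suprabasal types. S100 proteins are small calcium-binding proteins, many of them encoded beside the envelope genes in the epidermal differentiation complex. Kallikreins are secreted serine proteases, some of which cut the junctions of shedding epidermal cells. Cystatins and elafin inhibit proteases of the same tissue.

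In both groups the levels differed widely, within roles as well as between them. The S100 and annexin genes ran from under 1 FPKM to gene sums of up to 2165 FPKM, and 9 of 10 envelope precursors stayed under 1 FPKM. No change with BB608 was called among the 36 genes. By Cuffdiff's q under 0.05 in the authors' deposited table, 0 of 22 tested genes were called, against 1.06% of all 11414 genes with a tested coding sequence. At so low a share, a count of 0 does not set a group of 22 genes apart from the rest. Without adjustment, a p under 0.05 was listed for a coding sequence of 4 of the 22 genes, S100A6, S100A9, S100A11 and KRT4, or 18.2%, against 9.49% of all tested genes. Counted by coding sequence, that is 4 of 38 tested, or 10.5%, against 3.31% of all 34474 tested. No test was made of these shares, and the smallest q among the 38 was 0.435 in the deposited table.

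As a check of the label, the squamous markers were present, with gene sums in DMSO and BB608 of 2334 and 2472 FPKM for the basal keratin KRT5, 62.8 and 66.8 FPKM for KRT14, 32.1 and 35.3 FPKM for TP63, and 21.8 and 21.3 FPKM for KRT6A. The fibroblast markers COL1A1, COL1A2, PDGFRB and DCN and the blood markers PTPRC and CD3E were all under 1 FPKM in both groups. The endothelial cadherin CDH5 was at 3.82 FPKM with DMSO and 4.09 FPKM with BB608. PECAM1 was looked up as well, but the authors' table holds no row under that single name, so CDH5 is the only endothelial marker here.

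**Figure D1:**
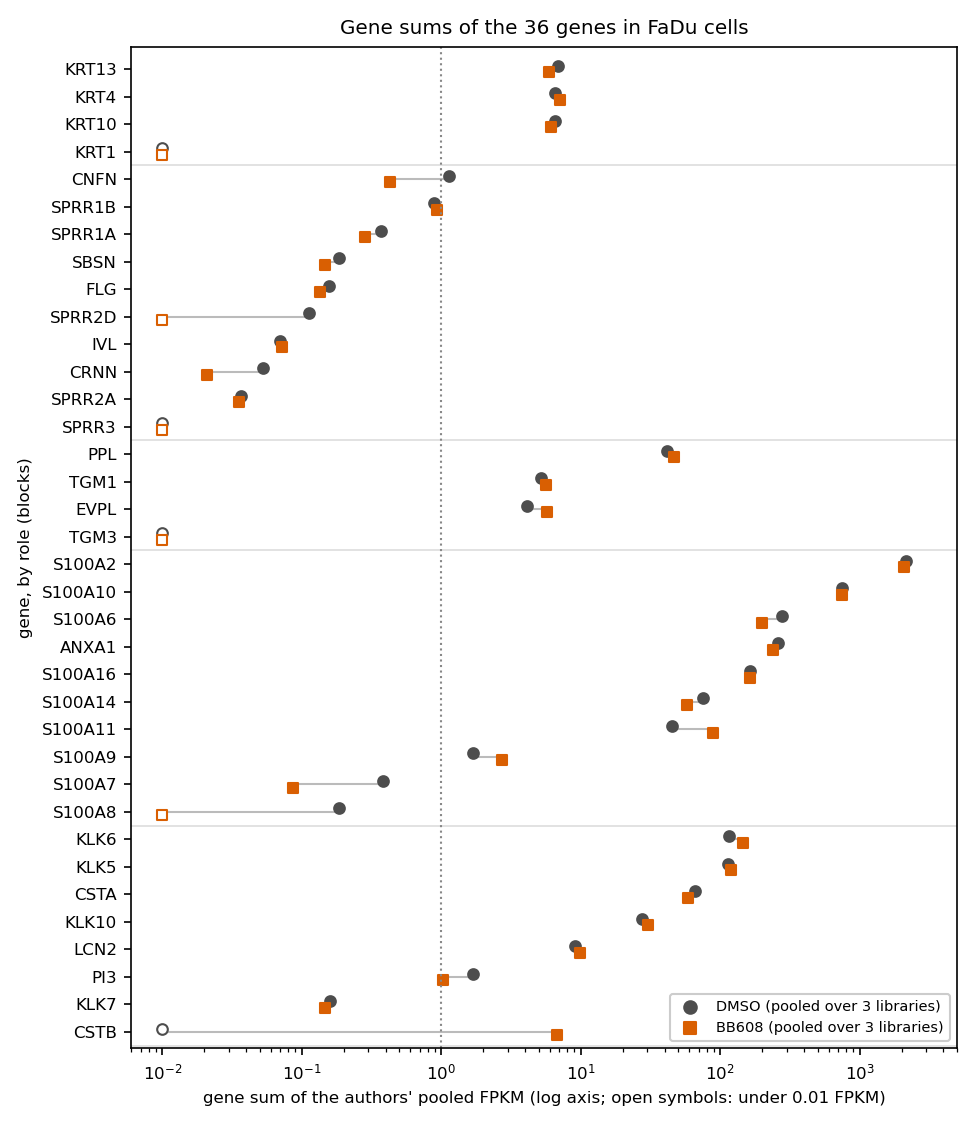
Gene sums of the 36 genes in FPKM on a log axis, blocked by role (keratins, envelope precursors, crosslinking and scaffold, S100 and annexin, proteases with inhibitors and LCN2). Circles are DMSO and squares BB608, each 1 value pooled by the authors, with no error bar to be had; open symbols lie under 0.01 FPKM. The dotted line marks 1 FPKM, which 22 genes reached in either group, and S100A2 lies farthest right at 2165 and 2091 FPKM.

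A gene was kept when its sum reached 1 FPKM in either group and was above 0 in both. Of the 36 genes, 22 were kept and 14 were not. This filter admits a gene through whichever group is higher, and CNFN and CSTB passed it through 1 group only. KRT1, SPRR3 and TGM3 are listed at 0 in both groups. Another 2 genes, SPRR2D and S100A8, are listed at 0 in BB608, with gene sums of 0.112 and 0.185 FPKM in DMSO. The other 9 genes under the filter were IVL, SPRR1A, SPRR1B, SPRR2A, FLG, CRNN, SBSN, S100A7 and KLK7, none above the 0.932 FPKM of SPRR1B in BB608. Genes under the filter had no tested coding sequence, so the table makes no statement on their change.

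Among the 22 genes kept, 11 gene sums were lower and 11 higher in BB608, with a median log2 ratio of 0.03. All 10943 genes kept by the same filter had a median of 0.03, with 42.5% of them lower. A difference of at least 1.5-fold was found in 2 of the 22 downward, CNFN and PI3, and in 3 upward, S100A9, S100A11 and CSTB. Over all kept genes such differences made up 3.81% downward and 5.23% upward. CNFN and CSTB entered these counts through the filter on their higher group alone, so nothing is read from the shares. None of these 5 was called by the authors' q.

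The position of the genes on chromosome 1 went with their level. Between S100A10 and S100A13, from 151955390 to 153618833 on chromosome 1 of hg19, the table lists 63 genes, 17 of them among the 36. Of the 63, 11 were kept, S100A10 and S100A11 at one end, S100A9 further in and 8 genes at the other end. The stretch from TCHHL1 to S100A7 holds 51 genes, of which 50 were under 1 FPKM in both groups and 27 were listed at 0 in both. The remaining gene of that stretch, S100A9, was kept. All 18 late cornified envelope (LCE) genes and all 10 SPRR genes of the table were under 1 FPKM. At the far end, from S100A6 to S100A13, 8 of 10 genes were kept.

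**Figure D2:**
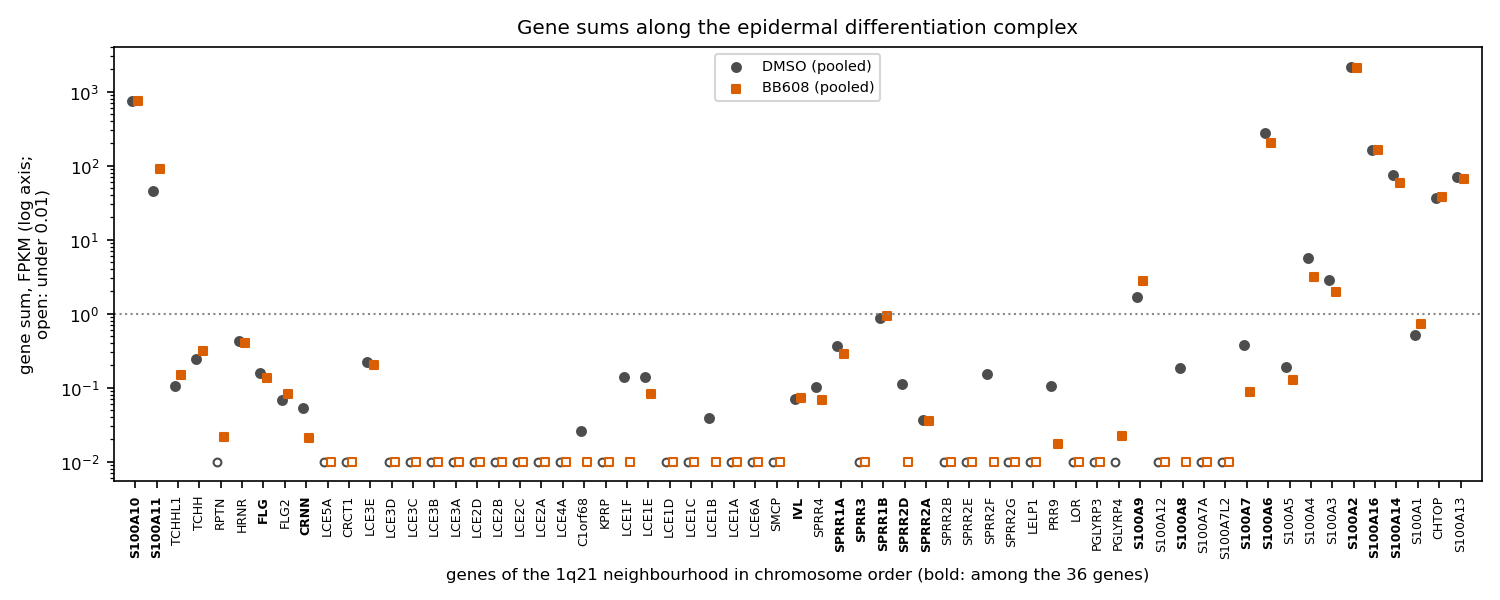
Gene sums in FPKM (log axis) of the 63 genes from S100A10 to S100A13, in chromosome order by the table's loci, with genes of a shared locus ordered by the authors' locus number. Circles are DMSO and squares BB608, 1 pooled value each, open under 0.01 FPKM; names in bold are among the 36 genes. S100A10 and S100A11 at one end and S100A6, S100A2, S100A16, S100A14 and S100A13 at the other lie above 40 FPKM. The middle holds 50 of 51 genes under the dotted line at 1 FPKM.

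Promoter windows of 300 bases, 250 before to 50 after a RefSeq gene start (GRCh38.p14), were found for 27 of the 36 genes. They are shown for genes at the extremes of level. IVL, which encodes the early envelope precursor involucrin, and SPRR3 stand for the genes near 0, S100A2 and S100A10 for the most abundant ones, and S100A6 for the abundant gene with the smallest p. In the first 3, capitals mark the AP-1 heptamer TGAGTCA, or TGACTCA as it reads on the other strand, and the TATAAA box on the gene's strand. In the last 2, which hold neither, capitals mark CpG dinucleotides. The windows are chr1:152908296-152908595 (plus strand) for IVL, chr1:153001499-153001798 (plus strand) for SPRR3, chr1:153565795-153566094 (minus strand, the upstream of 2 windows) for S100A2, chr1:151993810-151994109 (minus strand) for S100A10 and chr1:153535942-153536241 (minus strand) for S100A6.
IVL: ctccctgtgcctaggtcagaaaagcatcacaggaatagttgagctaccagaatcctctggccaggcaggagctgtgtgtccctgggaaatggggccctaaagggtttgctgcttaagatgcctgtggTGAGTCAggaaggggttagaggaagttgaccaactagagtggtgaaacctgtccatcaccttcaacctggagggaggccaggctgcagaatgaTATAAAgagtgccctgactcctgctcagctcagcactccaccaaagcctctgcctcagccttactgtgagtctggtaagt
SPRR3: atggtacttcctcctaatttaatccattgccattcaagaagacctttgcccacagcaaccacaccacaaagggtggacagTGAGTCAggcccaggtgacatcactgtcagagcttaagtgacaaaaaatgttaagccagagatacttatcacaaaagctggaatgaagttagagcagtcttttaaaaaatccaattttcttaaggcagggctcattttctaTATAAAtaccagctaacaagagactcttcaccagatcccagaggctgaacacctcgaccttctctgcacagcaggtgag
S100A2: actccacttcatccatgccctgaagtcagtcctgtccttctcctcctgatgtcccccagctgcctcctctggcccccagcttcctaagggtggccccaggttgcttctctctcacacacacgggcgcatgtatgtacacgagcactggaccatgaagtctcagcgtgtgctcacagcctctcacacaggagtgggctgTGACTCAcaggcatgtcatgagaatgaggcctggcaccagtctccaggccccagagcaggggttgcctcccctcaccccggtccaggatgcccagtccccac
S100A10: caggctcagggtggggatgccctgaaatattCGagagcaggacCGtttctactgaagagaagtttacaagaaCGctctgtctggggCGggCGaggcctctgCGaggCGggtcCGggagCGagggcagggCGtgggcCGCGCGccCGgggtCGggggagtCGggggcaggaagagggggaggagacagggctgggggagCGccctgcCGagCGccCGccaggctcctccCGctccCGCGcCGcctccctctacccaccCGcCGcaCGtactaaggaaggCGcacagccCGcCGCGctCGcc
S100A6: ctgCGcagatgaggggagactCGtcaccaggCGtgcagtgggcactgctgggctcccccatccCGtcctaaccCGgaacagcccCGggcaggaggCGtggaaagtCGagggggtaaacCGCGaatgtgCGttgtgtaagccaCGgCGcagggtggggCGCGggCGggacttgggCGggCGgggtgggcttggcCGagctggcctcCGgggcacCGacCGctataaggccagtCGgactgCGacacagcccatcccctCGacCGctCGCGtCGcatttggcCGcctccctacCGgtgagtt

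The heptamer starts 123 bases before the IVL start, 170 before the SPRR3 start and 52 before the start of the S100A2 window shown. That S100A2 window was chosen because it holds the heptamer, which the other S100A2 window lacks. The heptamer occurred in a window of 7 of the 27 genes, or 25.9%, against 6.05% of all 27305 genes in the promoter table. These were IVL, SPRR1A, SPRR1B, SPRR2A, SPRR3, SBSN and S100A2, so 6 of the 7 were genes under 1 FPKM and the seventh was the most abundant of the set. The TATAAA box occurred in 12 of 27 genes, or 44.4%, against 8.99% of all genes, and in no window of the set did it overlap the heptamer. The CpG count was 32 in the S100A10 window, 31 in that of S100A6 and 22 in that of S100A11, and 0 in those of IVL and SPRR1B. Over the 15 kept genes with a window the median of the highest count per gene was 7, and over the 12 under the filter it was 2, against 16 over all genes. Single genes often lay outside this order. Among the kept genes, S100A2, the most abundant, had a highest count of 5, KRT10 had 1 and ANXA1, also abundant, had none. Among the genes under the filter, KLK7 had 16 and TGM3 had 6. A match of letters is a description of the window and not of a bound site.

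**Figure D3:**
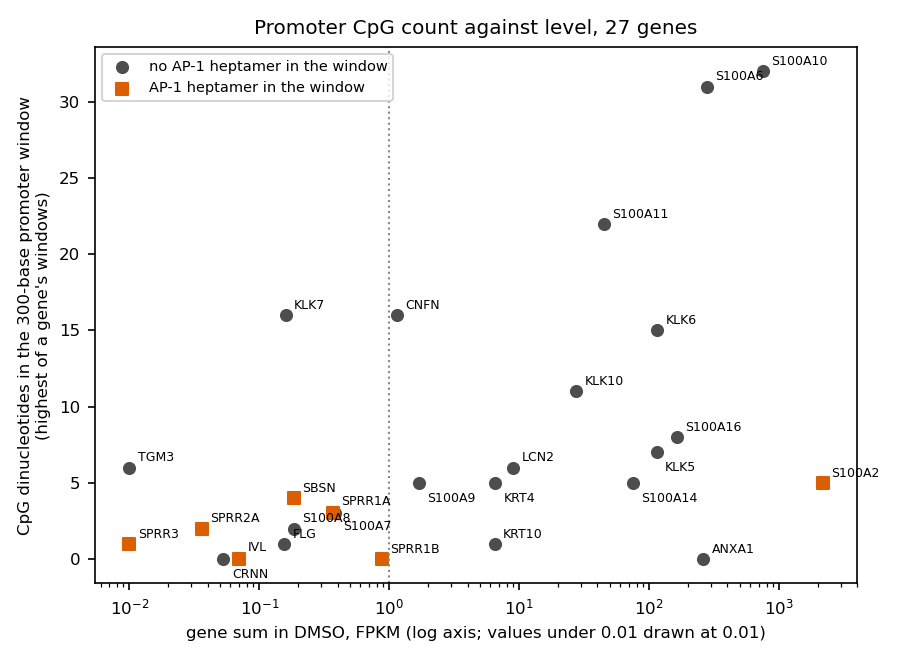
CpG dinucleotides in the 300-base promoter window (the highest of a gene's windows) against the gene sum in DMSO in FPKM (log axis) for 27 genes; each point is 1 gene. Squares hold an AP-1 heptamer in a window and circles do not; S100A10 and S100A6 lie at the top right with 32 and 31 CpG, and 6 of 7 squares lie left of the dotted line at 1 FPKM.

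Of the suprabasal keratins, 3 of 4 were expressed. KRT1 of the epidermal suprabasal pair is listed at 0 in both groups, while its partner KRT10 had a gene sum of 6.49 FPKM with DMSO and 6.08 FPKM with BB608. KRT4 and KRT13, the suprabasal pair of internal squamous mucosa, were at nearly the same level as KRT10 in DMSO, 6.56 and 6.93 FPKM, and at 7.13 and 5.92 FPKM in BB608. None of the 3 expressed keratins was called. One of the 3 tested KRT4 coding sequences had a p of 0.00295 and a q of 0.435 by Cuffdiff in the authors' deposited table, at 0.871 FPKM with DMSO and 0.309 FPKM with BB608. The most abundant KRT4 sequence stood at 5.21 and 5.28 FPKM in the same deposited table, so the gene sum moved by 0.12 on the log2 scale. The third KRT4 sequence tested lay in the other direction, at 0.357 FPKM with DMSO and 1.10 FPKM with BB608 in the deposited table.

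Of the 10 envelope precursors, 9 were under 1 FPKM in both groups and none was called. CNFN, which encodes cornifelin, was the only one of 10 kept, at 1.14 FPKM with DMSO and 0.432 FPKM with BB608, a log2 ratio of -1.40. An error for such a ratio was derived from the authors' statistic and p, and is called the implied SE. For CNFN it was 0.81, with a 95% interval from -2.99 to 0.19 and a p of 0.0567 in the authors' deposited table. SPRR1B had gene sums of 0.883 and 0.932 FPKM in DMSO and BB608, and SPRR1A of 0.370 and 0.284 FPKM. SPRR1B and SPRR1A are close paralogs, as are SPRR2A and SPRR2D, so the split of reads within each pair is uncertain. SPRR2A was at 0.0363 and 0.0353 FPKM. IVL was at 0.0699 and 0.0717 FPKM, and FLG, the precursor of the filament-aggregating protein filaggrin, at 0.156 and 0.135 FPKM. CRNN, which encodes cornulin, was at 0.0530 and 0.0210 FPKM, and SBSN, which encodes suprabasin, at 0.184 and 0.146 FPKM.

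Enzyme and scaffold genes of the envelope lay above most of its precursors in level. TGM1, the membrane-bound keratinocyte transglutaminase, had a gene sum of 5.15 FPKM with DMSO and 5.62 FPKM with BB608, spread over 9 coding sequences, while TGM3 is listed at 0 in both groups. PPL, which encodes periplakin, was the most abundant of this role at 41.4 and 47.0 FPKM. Its most abundant sequence had a log2 ratio of 0.17 with a 95% interval from -0.05 to 0.39 and a p of 0.126 in the authors' deposited table. EVPL, which encodes its partner envoplakin, was lower in level, at 4.12 and 5.73 FPKM, with a log2 ratio of 0.38 and an interval from -0.18 to 0.94 for its tested sequence. All 3 kept genes of this role had higher gene sums in BB608, by 0.12 to 0.48 log2, and none was called. Over all kept genes 42.5% were lower, so most were higher too, and nothing is read from this direction.

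**Figure D4:**
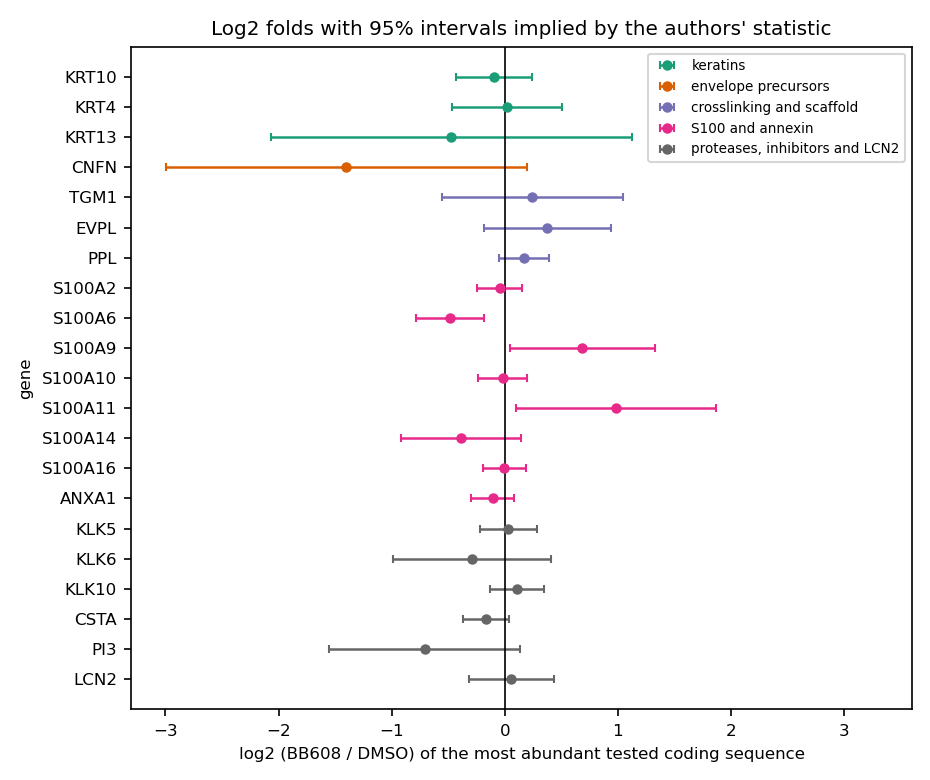
Log2 ratio of BB608 over DMSO of the most abundant tested coding sequence of 21 genes, coloured by role. Points are ratios of the authors' pooled FPKM values and bars are 95% intervals from the implied SE; the intervals of S100A6, S100A9 and S100A11 lie to one side of 0, before any adjustment for the number of genes.

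The S100 genes held most of the signal of the set and the largest differences among its abundant genes. S100A2, a nuclear S100 protein of basal keratinocytes, ranked 15 among all genes by gene sum in DMSO and 18 in BB608, at 2165 and 2091 FPKM. It made up 52.2% of the FPKM of the 36 genes in DMSO and 51.8% in BB608. S100A10, the partner of annexin A2 at the plasma membrane, followed at 752 and 743 FPKM. S100A16 was at 164 and 163 FPKM. The intervals of these 3 were narrow: from -0.24 to 0.15 for the main S100A2 sequence, from -0.24 to 0.20 for S100A10 and from -0.20 to 0.19 for S100A16 on the log2 scale.

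S100A6, which encodes calcyclin, was lower in BB608, at 199.6 FPKM against 279 FPKM in DMSO, a log2 ratio of -0.48 (implied SE 0.15, 95% interval from -0.78 to -0.19). Its p was 0.0049 and its Cuffdiff q 0.608 in the authors' deposited table, so it was not called. S100A14 lay in the same direction, at 57.6 against 75.3 FPKM, a log2 ratio of -0.39 with an interval from -0.92 to 0.14. ANXA1, which encodes the calcium-dependent membrane-binding protein annexin A1, had gene sums of 261 FPKM with DMSO and 238 FPKM with BB608. The interval of its main sequence ran from -0.30 to 0.09.

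S100A11 was higher in BB608, at 88.5 FPKM against 44.8 FPKM in DMSO, a 1.98-fold difference with a 95% interval from 1.07 to 3.65 and an implied SE of 0.45 in log2. Its p was 0.0344 and its Cuffdiff q 0.997 in the authors' deposited table. S100A11 encodes a protein that acts in keratinocyte growth control, and in the table it shares a locus on chromosome 1, from 151955390 to 152020383 of hg19, with S100A10, which differed by -0.02 log2. The error of S100A11 was large for its level. Among 80 other genes with 1 coding sequence and a mean FPKM within 1.5-fold of it, the median implied SE was 0.11, and 97.5% had a smaller one. S100A14, at nearly the same mean level, had 0.27, larger than 88.8% of its 80 comparable genes. S100A6 had 0.15, larger than 85.1% of its 47, and S100A10 had 0.11, larger than 85% of its 20. S100A16 had 0.10, larger than 27.1% of its 48. What widened the error of S100A11 was not tested.

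**Figure D5:**
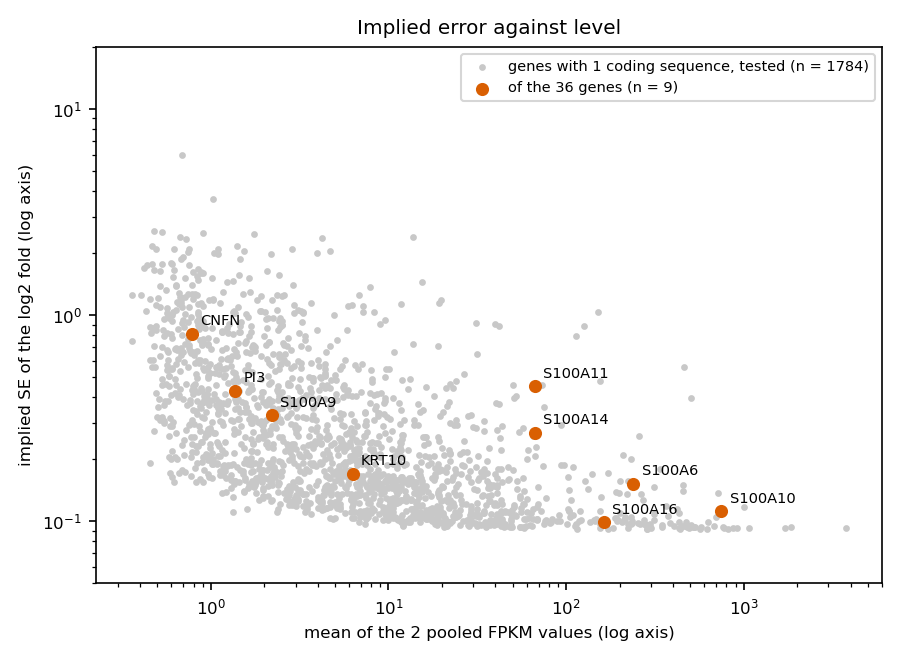
Implied SE of the log2 ratio against the mean of the 2 pooled FPKM values (both axes log) for 1784 genes with 1 coding sequence and a usable error; each point is 1 gene. Of the 36 genes 9 are named. Among the abundant ones, S100A11 at 0.45, S100A14 at 0.27, S100A6 at 0.15 and S100A10 at 0.11 lie above most genes of their level. S100A16 at 0.10 is close to the median of 0.10 for genes of its level.

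The inflammatory S100 genes were low. S100A9, a subunit of calprotectin, was at 1.70 FPKM with DMSO and 2.73 FPKM with BB608, a 1.61-fold difference with a 95% interval from 1.03 to 2.51, a p of 0.0392 and a Cuffdiff q of 0.997 in the authors' deposited table. S100A8, its partner subunit, went the other way in the listing, with 0.185 FPKM in DMSO and 0 in BB608, and was not tested. S100A7, which encodes psoriasin, was at 0.379 and 0.0858 FPKM and was not tested either.

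Within the kallikrein cluster, levels above 1 FPKM were found for some genes and not for others. The cluster runs from 51322403 to 51587502 on chromosome 19 of hg19 and holds 15 KLK genes, of which 6 were kept. KLK5, an activator of other kallikreins, had gene sums of 114 FPKM with DMSO and 119.8 FPKM with BB608. KLK10 had 27.4 and 30.2 FPKM. KLK7, the chymotrypsin-like protease of epidermal shedding that KLK5 activates, had 0.159 and 0.147 FPKM. The main KLK5 sequence had an interval from -0.22 to 0.28 log2, and the main KLK10 sequence one from -0.13 to 0.35. KLK5 to KLK9 share 1 locus in the table, with 5 gene names.

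KLK6, a trypsin-like kallikrein, differed in direction between its coding sequences. Its gene sum was 115 FPKM with DMSO and 145 FPKM with BB608, a log2 ratio of 0.34. Its most abundant sequence was lower in BB608, at 64.4 against 78.5 FPKM in the authors' deposited table, with a log2 ratio of -0.29 and an interval from -0.99 to 0.41. Another KLK6 sequence was at 0.862 FPKM with DMSO and 36.8 FPKM with BB608 in that deposited table, with a p of 0.0947. The first of these held 68.3% of the KLK6 sum in DMSO and 44.2% in BB608. The direction for KLK6 therefore depends on the sequence taken, and none of its 4 sequences was called.

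The inhibitors and LCN2 were not called either. CSTA, an inhibitor of cathepsins and an envelope component, had gene sums of 65.7 FPKM with DMSO and 58.4 FPKM with BB608, and the interval of its main sequence ran from -0.37 to 0.04 log2. PI3, which encodes the elastase inhibitor elafin, was at 1.69 and 1.04 FPKM, a log2 ratio of -0.71 with an interval from -1.55 to 0.14. CSTB, a cystatin of the cytosol, is listed at 0.000609 FPKM with DMSO and 6.71 FPKM with BB608 for its only coding sequence, with a p of 0.281 in the authors' deposited table. No fold is given for CSTB, since its DMSO value is next to 0 and the table yields no usable error. LCN2, which encodes an iron-siderophore-binding lipocalin, was at 9.03 and 9.84 FPKM, with an interval from -0.32 to 0.44 log2 for its main sequence.

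For genes with a narrow interval the table bounds the change of the most abundant tested coding sequence. It does not bound that of the gene where the gene has other sequences. Of the 21 genes with a usable error, 15 had a 95% interval inside 1 log2 in either direction and 11 inside 1.5-fold. The 11 were KRT10, KRT4, PPL, S100A2, S100A10, S100A16, ANXA1, KLK5, KLK10, CSTA and LCN2, each by its most abundant tested sequence. The implied SE ran from 0.10 for ANXA1 to 0.81 for KRT13 and CNFN. For the other 6, namely KRT13, CNFN, TGM1, S100A9, S100A11 and PI3, the interval reached past 1 log2, so changes of that size are not bounded. Further sequences of a gene are not covered by these bounds. Among the 15 is KLK6, with another sequence at 0.862 FPKM with DMSO and 36.8 FPKM with BB608. Among the 11 is KRT4, with another sequence whose interval ran from -2.42 to -0.57 log2.

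Other genes of the same tissue program were taken from a list of 92 further genes in the table, among them LCE, SPRR, S100, KLK, SERPINB and desmosomal genes. Of these 19 were kept and 26 had a tested coding sequence. By Cuffdiff's q 0 of the 26 were called, against the same 1.06% background, and 6, or 23.1%, had a coding sequence with an unadjusted p under 0.05, against 9.49% of all tested genes. No test was made of that share, and a count of 0 calls does not set so small a list apart from the background. Among the 19 kept genes 12 were lower and 7 higher, with a median log2 ratio of -0.24. The median was -0.09 by the most abundant tested sequence, -0.16 over tested sequences alone and -0.07 without the filter. Over all kept genes 42.5% were lower, with a median of 0.03 by gene sums and 0.03 by the most abundant tested sequence. ABCA12 and SPINK5 passed the filter through their higher group alone. No test was made of this direction, and nothing is read from it. The largest ratios were -0.99 for KLK8, -0.88 for S100A4, -0.58 for the cystatin CST6, 0.55 for the desmosomal cadherin DSC2, -0.54 for S100A3 and -0.53 for KLK9. S100A4, which lies between S100A6 and S100A2, was at 5.69 FPKM with DMSO and 3.08 FPKM with BB608, with a p of 0.0508 in the authors' deposited table. KLK8 was at 4.09 and 2.05 FPKM over 6 coding sequences, and KLK9, which shares its locus number with KLK8 in the table, at 4.41 and 3.05 FPKM. The tested sequences of each gene lay in opposite directions in the authors' deposited table. The more abundant KLK9 sequence was at 2.34 FPKM with DMSO and 3.05 FPKM with BB608, against the direction of the gene sum, with an interval from -1.79 to 2.57 log2, and the other was at 2.08 and 2.89e-07 FPKM. For KLK8 the more abundant one was at 2.35 and 0.491 FPKM, as the gene sum lower in BB608, and the other at 0.684 and 1.10 FPKM.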

How the data were processed

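RNA was measured in 6 libraries of FaDu cells, 3 per group, from total RNA with ribosomal RNA removed, per the labels' protocols. Per the submitters' processing notes, the authors used TopHat2 2.0.11, Cufflinks 2.2.1 and Cuffdiff with build hg19, with the annotation not given in the sources used here. Each row of the deposited table holds 1 FPKM value per group for a coding sequence, pooled by the authors over libraries. The groups are named DMSO_subset and BB608_subset in every row, and what the subset covers cannot be told from these names. The deposited test statistic is used as a score. The deposited p-value and q-value are the authors' Cuffdiff results, and the q equals a Benjamini-Hochberg adjustment of p over the 34474 tested rows to within 5.23e-07. Log2 ratios were computed here from FPKM without a pseudocount.

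FPKM was summed per gene name, leaving out 43 rows with merged names, and a gene was kept when its sum reached 1 FPKM in either group and was above 0 in both. The implied SE is the log2 ratio divided by the statistic and by 1.74, the median normal quantile of p per unit of statistic. It is given where a row's own quotient lay within 25% of that median. It is an approximation of the spread the authors' model estimated. A call is a deposited q under 0.05. No test across libraries was possible, so Cuffdiff's result stood in for the limma fit foreseen for values per library. The replicates' independence rests on the series' design text.

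All 36 genes are named, together with their coding sequences at p under 0.05 and the 6 largest ratios of the wider list. The genes and lists were chosen with earlier results of these data known. Alternatives covered the filter, the p-values, pseudocounts of 0.1 and 1 FPKM, 2 scalings and the summary per gene. Promoter sequences are from RefSeq, GRCh38.p14, with no coordinate carried over from hg19. Python 3.11.15 with pandas 2.3.3 and scipy 1.17.1 was used.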

Additional observations from a re-analysis of the deposited data

How the results depend on the processing

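No paired analysis was possible because replicates had been pooled within each group before deposit. Leave-one-out fits and limma could not be run on such values. The settings for the wider list, that without CSTB and the sums over sequences of at least 0.1 FPKM in both groups were chosen after seeing the data. The count of calls was 0 for the 36 genes and 0 for the wider list under each of the 4 other rules tried: q over rows with a mean of at least 1 or 5 FPKM, normal p-values from the statistic, and a bound of 1 log2, which could only remove calls. The median log2 ratio of the 36 genes lay between -0.04 and 0.07 over 9 alternatives, on both sides of 0, and that of the wider list between -0.27 and -0.07. Scaling by the median log2 ratio subtracts 0.03 from every gene.

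Of 131 alternative values for 22 gene sums, 126 were unchanged or moved by less than 1 implied SE. The other 5 were KLK6 at -0.29 by its most abundant sequence, where the sign changed, CNFN at -0.58 with a pseudocount of 1 FPKM, which understates ratios of low genes, and 3 of CSTB, for which no error was usable. Many of the 126 could not have moved. For a gene with 1 coding sequence the summaries by sequence equal the gene sum, also for CSTB. The median scaling subtracts 0.03, less than the smallest implied SE of 0.10. The count of 126 is therefore no measure of robustness. Depth is unknown, so the genes listed at 0 cannot be given an upper limit.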

Other observations

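Coding sequences with an unadjusted p under 0.05 were listed for 6 genes of the wider list, CST6, DSC2, KRT80, S100P, SLPI and SPINK9, and none was called. SLPI, the secretory leukocyte protease inhibitor, was at 9.58 FPKM with DMSO and 6.63 FPKM with BB608, with an interval from -0.86 to -0.21 log2, a p of 0.00175 and a Cuffdiff q of 0.305 in the authors' deposited table. CST6 was at 3.62 FPKM with DMSO and 2.42 FPKM with BB608, with a p of 0.0134 in the deposited table. SPINK9, a kallikrein inhibitor, had gene sums of 6.63 FPKM with DMSO and 4.73 FPKM with BB608, with a p of 0.0111 for its tested sequence in the deposited table. The other kept serpins and protease inhibitors of the list, chosen after their values were seen, lay on both sides with p above 0.05. In DMSO and BB608, SERPINB1 was at 31.8 and 27.0 FPKM and SERPINB5 at 24.7 and 19.5 FPKM. SPINK5 was at 0.914 and 1.26 FPKM and SERPINB13 at 3.57 and 3.68 FPKM. S100P, under the filter, was at 0.698 and 0.359 FPKM with a p of 0.0341 in the deposited table. Of the 2 tested DSC2 sequences, one was at 1.48 and 2.58 FPKM with a p of 0.0331 in the deposited table and the other at 1.41 and 1.64 FPKM.

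KRT80, a type II keratin of differentiating epithelium, had a pair of tested coding sequences that differed in opposite directions. One was at 13.9 FPKM with DMSO and 20.5 FPKM with BB608, with a p of 0.00115 and a Cuffdiff q of 0.224 in the authors' deposited table, and the other at 14.7 and 11.1 FPKM. The gene sum moved by 0.15 on the log2 scale.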
